A study of Mus musculus with 11 samples.

Results

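The cytosolic ribosomal protein genes were followed in β-cells that had lost *Raptor* (gene symbol *Rptor*), the scaffold protein of the kinase complex mTORC1. Members were chosen by symbol, as protein-coding mouse genes named Rpl or Rps with a number, with or without the letter a or x after it, plus *Rplp0*, *Rplp1*, *Rplp2* and *Rpsa*. This gave 76 genes of the 34745 entries measured, 46 of the large and 30 of the small ribosomal subunit. RNA was sequenced from GFP-positive cells sorted from islets of 8-week-old mice of the strain C57BL/6 x 129SV. The 3 WT libraries came from *Raptor*+/+ littermates carrying RIP-Cre and Rosa26GFP. The 4 diabetic libraries came from βRapKOGFP mice (*Raptor*-/-, RIP-Cre, Rosa26GFP) that had no insulin pellet. The 4 euglycemic libraries came from βRapKOGFP mice that had carried an insulin pellet for 4 weeks. All 3 groups thus share the Cre, which is driven by a rat insulin promoter, and the GFP reporter, which marks every cell with a history of Cre activity whatever it expresses later.

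The cytosolic ribosome is built from ribosomal RNA and one copy of most of these proteins, with a stalk of P0, P1 and P2 proteins on the large subunit. The mRNAs of vertebrate ribosomal proteins begin with a cytosine followed by a run of pyrimidines, the 5′ terminal oligopyrimidine (TOP) tract, and mTORC1 controls their translation through this tract. A β-cell makes proinsulin in large amounts and depends on its translation machinery. RNA sequencing measures the abundance of the mRNA and not its translation.

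The start of the gene is shown here because it carries the TOP tract. RefSeq gave a promoter window (GRCm38.p6) for 56 of the 76 members. A tract was counted where a C opened an uninterrupted run of at least 5 C or T bases within 5 bases of the annotated start, on the gene's own strand. It was found in 27 of the 56 members (48.2%), in 21.1% of the 26969 other genes and in 21.2% of all 27025 genes. Below are 30 bases from 10 before to 20 after the annotated start, with the tract in capitals, for *Rps6*, the substrate of S6 kinase, for *Rplp2* of the stalk, and for *Rpl13a*, *Rpl28* and *Rps10*, whose levels are described further on.
Rps6 (chr4:86857348-86857377, minus strand): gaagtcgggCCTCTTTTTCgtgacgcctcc
Rplp2 (chr7:141447641-141447670, plus strand): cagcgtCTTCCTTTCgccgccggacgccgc
Rpl13a (chr7:45128726-45128755, minus strand): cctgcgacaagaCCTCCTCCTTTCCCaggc
Rpl28 (chr7:4792955-4792984, plus strand): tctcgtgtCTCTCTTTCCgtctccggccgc
Rps10 (chr17:27635225-27635254, minus strand): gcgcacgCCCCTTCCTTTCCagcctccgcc
By contrast, the windows of *Rps19* and *Rpl4* hold no such run near the start that RefSeq annotates.
Rps19 (chr7:24884582-24884611, plus strand): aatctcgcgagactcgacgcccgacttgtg
Rpl4 (chr9:64173377-64173406, plus strand): tttcctgtgggagcagccgggtagagagga
A missing run says only that these letters are not in this window, since the annotated start can lie some bases from the one used.

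The values are FPKM, fragments per kilobase of transcript scaled to the mapped fragments of the library, from libraries of 9497788 to 16644018 fragments as inferred from the values. *Rptor* spanned 0.948 to 1.79 FPKM in the WT libraries, 0.485 to 0.937 in the diabetic ones and 0.423 to 0.623 in the euglycemic ones. Neither mutant group overlapped WT, at p = 0.0571 in each two-sided exact permutation test, the smallest p that 4 against 3 libraries allow. The list of 10 β-cell markers was led by *Ins1*, *Ins2* or, in euglycemic library 2, *Iapp*, and its summed level was 157613 to 191511 FPKM in WT, 138230 to 206534 in diabetic and 117287 to 202220 in euglycemic libraries. WT library 1 stood apart from the other 2 WT libraries in the ribosomal protein genes. It had 49 of the 71 tested members above their own mean over the 11 libraries, against 2 in WT library 2 and 5 in WT library 3. Diabetic library 1 stood apart as well, with 2960 of the 4493 single-exon genes used to infer depth above 0, against 664 to 1404 in the other 10 libraries. Among the diabetic libraries it had the lowest summed level of the members and the highest summed levels of acinar, duct, endothelial, fibroblast and red cell markers. Log2 fold changes of tested members against WT are given with all libraries and without WT library 1. That library stood out by the members' own levels, so leaving it out raises their median fold change against WT. Calls made without it are therefore no independent support.

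The members differed widely in level. The mean FPKM over the 11 libraries, a level per length, was lowest for *Rpl9* at 0.333 and highest for *Rpl4* at 350.1, with a median of 8.97 over the 76 members. Only 7 members reached 100 FPKM, 30 lay between 10 and 100, 33 between 1 and 10, and 6 were under 1. The 10 highest members made up 60.2% of the summed level. *Rpl4* spanned 205 to 314 FPKM in the WT libraries, 265 to 478 in the diabetic ones and 359 to 514 in the euglycemic ones. *Rpl8* had 122 to 193 FPKM in WT, 124 to 173 in diabetic and 167 to 258 in euglycemic libraries. Every library had more *Rpl4* than *Rpl8*.

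Several members with low levels shared long stretches of sequence with entries elsewhere in the genome. Ribosomal protein mRNAs have left many processed pseudogenes in mammalian genomes, and a read that matches both the gene and a copy can be counted at either place. Each member's annotated transcripts were therefore cut into 50-base stretches, and a median of 38.4% of them also occurred in another annotated gene, from 0 at the lowest and 2.82% in *Rps3* to a highest value of 95.1%. The 50 members sharing under 50% of their stretches had a median level of 16.4 FPKM and the 26 sharing more had 5.63 FPKM (Spearman's rho between level and percentage -0.23 across the 76 genes, as a description). For 24 members an entry elsewhere held at least 25% of the stretches, and for 12 of them such an entry had the higher mean level. These entries included processed pseudogenes but also coding genes of another name, such as *Uimc1* for *Rpl29* (26.5%), *Gadl1* for *Rpl24* (28.5%) and *Wdr89* for *Rplp2* (28.0%). *Rpl11* had a mean of 0.549 FPKM beside 57.0 for its copy *Gm10036*. *Rpl23a* had 0.426 beside 58.2 for *Rpl23a-ps3*, and *Rpl27* had 2.65 beside 85.0 for *Rpl27-ps3*. *Rpl5* had 3.26 beside 62.5 for *Gm15500*, and *Rps27* had 1.08 beside 64.5 for the coding copy *Rps27rt*. The level of such a member and its copy cannot be told apart from these values, and every level of a single member that shares stretches is uncertain in this respect.

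**Figure D1:**
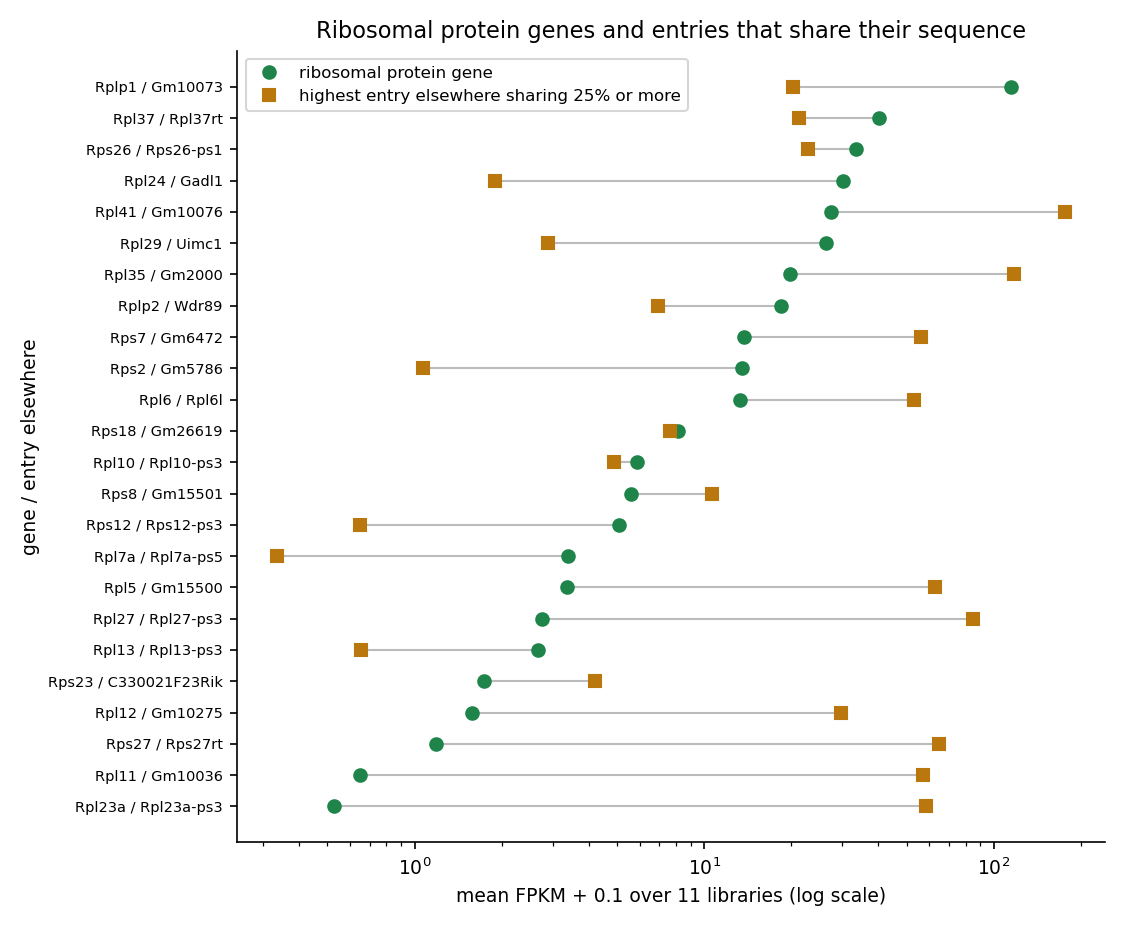
Mean FPKM over the 11 libraries, plus 0.1 and on a log axis, of the 24 members for which an entry elsewhere in the genome held at least 25% of the 50-base stretches (circles) and of the highest such entry (squares), sorted by the member's level. In 12 of the 24 pairs the square lies to the right of the circle, as for *Rpl11* with 0.549 against 57.0 FPKM.

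The 5 members that did not reach 1 FPKM in at least 3 libraries were compared singly. *Rpl11*, which with *Rpl5* and 5S RNA binds Mdm2, spanned 0.259 to 0.592 FPKM in the WT libraries, 0.164 to 0.691 in the diabetic ones and 0.430 to 1.90 in the euglycemic ones. *Rps13* spanned 0.287 to 0.473, 0.208 to 0.333 and 0.247 to 1.35 FPKM in the same order. *Rpl9*, *Rpl23a* and *Rpl36a* lay between 0.0936 and 1.25 FPKM in all libraries. The 3 groups overlapped for each of the 5 genes, and the two-sided exact permutation tests against WT gave p = 0.114 for *Rpl11* in euglycemic libraries and p from 0.171 to 1.0 for the others and for *Rpl11* in diabetic libraries.

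The summed level of the 76 members was highest in euglycemic βRapKOGFP β-cells. It was 2467, 1470 and 1563 FPKM in the WT libraries, 1747, 2205, 2312 and 2189 FPKM in the diabetic and 2562, 2960, 3207 and 2704 FPKM in the euglycemic libraries. Every euglycemic library was above every WT and every diabetic library, while the diabetic libraries lay between WT libraries 3 and 1. WT averaged 1833 ± 551 FPKM (SD, n = 3). The diabetic mean of 2113 ± 250 (SD, n = 4) was 1.15 times that of WT, and the euglycemic mean of 2858 ± 285 (SD, n = 4) was 1.56 times that of WT. Without WT library 1 the ratios were 1.39 and 1.88, and without diabetic library 1 the diabetic ratio was 1.22. As a share of all FPKM the members took 0.370% to 0.582% in WT, 0.484% to 0.614% in diabetic and 0.635% to 0.748% in euglycemic libraries. The 2 subunits moved together, with a large to small ratio of summed FPKM between 1.85 and 2.26 in all 11 libraries.

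FPKM is a relative scale, and in these cells a few mRNAs dominate it. The 20 highest genes, insulin among them, took 47.8% to 55.5% of the FPKM in WT, 46.9% to 59.3% in diabetic and 42.1% to 56.9% in euglycemic libraries. As a share of the FPKM left after these and the mitochondrial genes were set aside, the members took 0.855% to 1.15% in WT, 0.956% to 1.38% in diabetic and 1.13% to 1.57% in euglycemic libraries. On that scale the euglycemic group overlapped both others, since euglycemic library 1, at 1.13%, lay below WT library 1, at 1.15%, and below diabetic libraries 2, 3 and 4, at 1.38%, 1.18% and 1.15%. Diabetic library 2 was also above euglycemic library 2, at 1.34%. The sum of 78 mitochondrial ribosomal protein genes, which belong to a separate ribosome, also stood out in WT library 1, at 1835 FPKM against 1023 and 1063 in the other WT libraries.

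**Figure D2:**
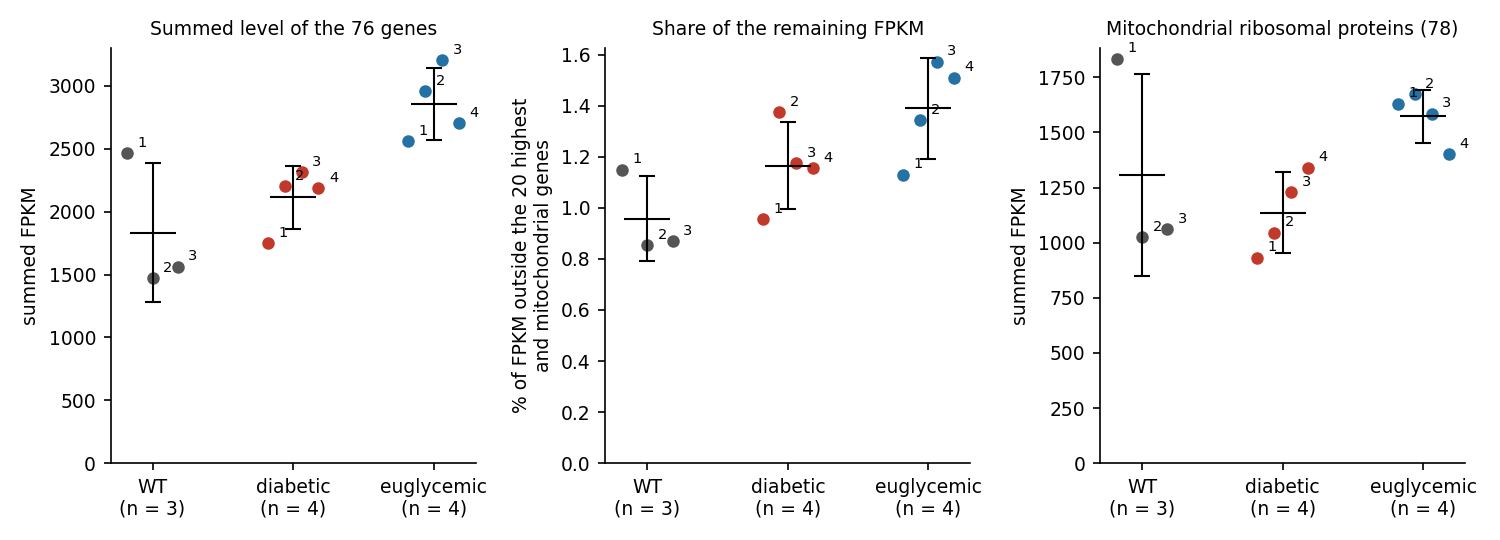
Each point is 1 library, numbered by replicate, with the group mean and SD in black. The left panel gives the summed FPKM of the 76 members, where the 4 euglycemic libraries (2562 to 3207) lie above all others, the middle panel their share of the FPKM outside the 20 highest and mitochondrial genes in percent, where WT library 1 and diabetic libraries 2, 3 and 4 reach above the lowest euglycemic library, and the right panel the summed FPKM of 78 mitochondrial ribosomal protein genes.

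Euglycemic βRapKOGFP β-cells were compared with WT to see how the members behaved without *Raptor* when an insulin pellet had been given against the diabetes. A gene was called where the limma p, adjusted by Benjamini-Hochberg over 11251 genes, did not exceed 0.05 and the change reached 1.5-fold. No member of the 71 tested was called, beside 62 of all genes (0.551%). The lowest adjusted p of a member was 0.069. At an unadjusted p of at most 0.05, 38 of 71 members (53.5%) were higher and 0 lower, where 7.33% of all genes tested were higher. The log2 fold change was above 0 for 70 of the 71 members, with a median of 0.53, or 1.45-fold, beside -0.010 over all genes. The large subunit (41 of 42 above 0, median 0.52) and the small subunit (29 of 29, median 0.55) had like medians. In 22 of 71 members (31.0%) every euglycemic library was above every WT library, beside 5.91% of all genes. Members share libraries and their levels move together, so these counts are not counts of independent events.

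The counts depended on single libraries. Without WT library 1, 20 of 71 members (28.2%) were called, all higher in euglycemic cells, beside 4.76% of all genes tested, and the median log2 fold change was 0.71. Every euglycemic library was then above both remaining WT libraries in 61 members (85.9%), beside 19.2% of all genes. At an unadjusted p of at most 0.05, 51 members were then higher, beside 13.1% of all genes. Leaving out WT library 2 gave 15 members (3.88% of all genes), WT library 3 gave 19 (3.99%) and euglycemic library 3 gave 21 (6.37%). Each of these fits called 0 members, beside 0.169%, 0.107% and 0.356% of all genes. With each library weighted by its own spread 38 of 71 (53.5%) were called, all higher, beside 20.3% of all genes. With the 20 highest and the mitochondrial genes left out of the scaling, 24 of 71 were higher at an unadjusted p of at most 0.05, beside 4.86% of all genes, and the median was 0.41, where that of all genes moved to -0.12, a distance of 0.53.

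Among the members with the highest fold changes, *Rpl24* was at 34.6, 11.1 and 25.4 FPKM in the WT libraries and at 38.4, 39.0, 43.9 and 39.9 FPKM in the euglycemic libraries, without overlap. The means were 23.7 ± 11.9 FPKM (SD, n = 3) in WT and 40.3 ± 2.47 (SD, n = 4) in euglycemic cells, a log2 fold change of 0.88 (SE 0.32, adjusted p = 0.25 by limma). With WT library 1 left out it was called, at 1.21 (SE 0.31, adjusted p = 0.048 by limma). *Rpl24* shared 81.7% of its stretches with other genes, 69.4% with the overlapping transcript *Gm28037*. The sum of both entries, formed after seeing the data, was 65.8, 37.2 and 31.4 FPKM in WT, 35.1, 69.0, 37.8 and 58.3 in diabetic and 51.0, 65.9, 74.7 and 52.0 in euglycemic libraries, so all 3 groups overlapped for the pair.

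*Rps19*, which the cell needs to mature the small subunit and which is mutated in Diamond-Blackfan anemia, was at 9.91, 6.48 and 6.85 FPKM in WT and at 12.4, 13.8, 17.1 and 15.05 FPKM in euglycemic libraries. The log2 fold change was 0.85 (SE 0.19, adjusted p = 0.081 by limma), and 1.02 (SE 0.18, adjusted p = 0.017) without WT library 1, where it was called. Of the stalk genes, *Rplp0*, the base of the stalk, was at 105, 61.5 and 74.9 FPKM in WT and at 138, 162, 147 and 115 FPKM in euglycemic libraries, without overlap (log2 fold change 0.82, SE 0.22). It too was called without WT library 1, at 1.03 (SE 0.20, adjusted p = 0.024 by limma). *Rplp1* (0.38, SE 0.24) and *Rplp2* (0.57, SE 0.27) had smaller values and their libraries overlapped with WT, and without WT library 1 they were at 0.61 and 0.80 and not called.

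The other members named for their roles had log2 fold changes on the positive side as well. *Rpl4*, the most abundant, differed by 0.79 (SE 0.25), and *Rpl13a*, known for release from the ribosome in inflammatory signaling, by 0.72 (SE 0.24). *Rpsa*, also known as the laminin receptor, differed by 0.63 (SE 0.21), *Rps3*, at the mRNA entry site, by 0.57 (SE 0.22), and *Rpl10*, a late joining protein of the large subunit, by 0.56 (SE 0.18). *Rpl5*, the partner of *Rpl11*, differed by 0.57 (SE 0.18) and *Rpl22* by 0.52 (SE 0.20). None of these 7 passed the adjusted threshold in the fit of all libraries. With WT library 1 left out *Rpl13a* (1.01, adjusted p = 0.024 by limma), *Rpl4* (0.99, adjusted p = 0.046) and *Rpl5* (0.71, adjusted p = 0.045) were called. *Rpsa* (0.79), *Rps3* (0.79), *Rpl10* (0.63) and *Rpl22* (0.54) were not, at adjusted p from 0.053 to 0.161. *Rpl5* shared 41.2% of its stretches with the overlapping gene *Fam69a*, and the sum of both was 5.36, 2.80 and 3.77 FPKM in WT and 4.92, 6.81, 6.82 and 6.996 in euglycemic libraries, where WT library 1 overlapped. *Rpl13a* summed with the overlapping *Gm45713* had every euglycemic library, from 150.1 FPKM, above every WT library, up to 145 FPKM.

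*Rpl28*, *Rpl27* and *Rps6* had the lowest values. *Rpl28* was at 1.34, 1.58 and 1.16 FPKM in WT and at 1.10, 1.47, 1.07 and 1.57 FPKM in euglycemic libraries, with a log2 fold change of -0.037 (SE 0.18). It was the 1 member below 0, and it was above 0 when WT library 2, euglycemic library 1 or euglycemic library 3 was left out. *Rpl27* (0.076, SE 0.29) and *Rps6* (0.097, SE 0.23) lay near 0, *Rps6* at 1.39 ± 0.29 FPKM (SD, n = 3) in WT and 1.6 ± 0.59 (SD, n = 4) in euglycemic cells. *Rps6* shared 84.6% of its stretches, so the gene's own mRNA is poorly measured. The 3 genes were at -0.041 (*Rpl28*), 0.22 (*Rpl27*) and 0.025 (*Rps6*) when WT library 1 was left out.

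**Figure D3:**
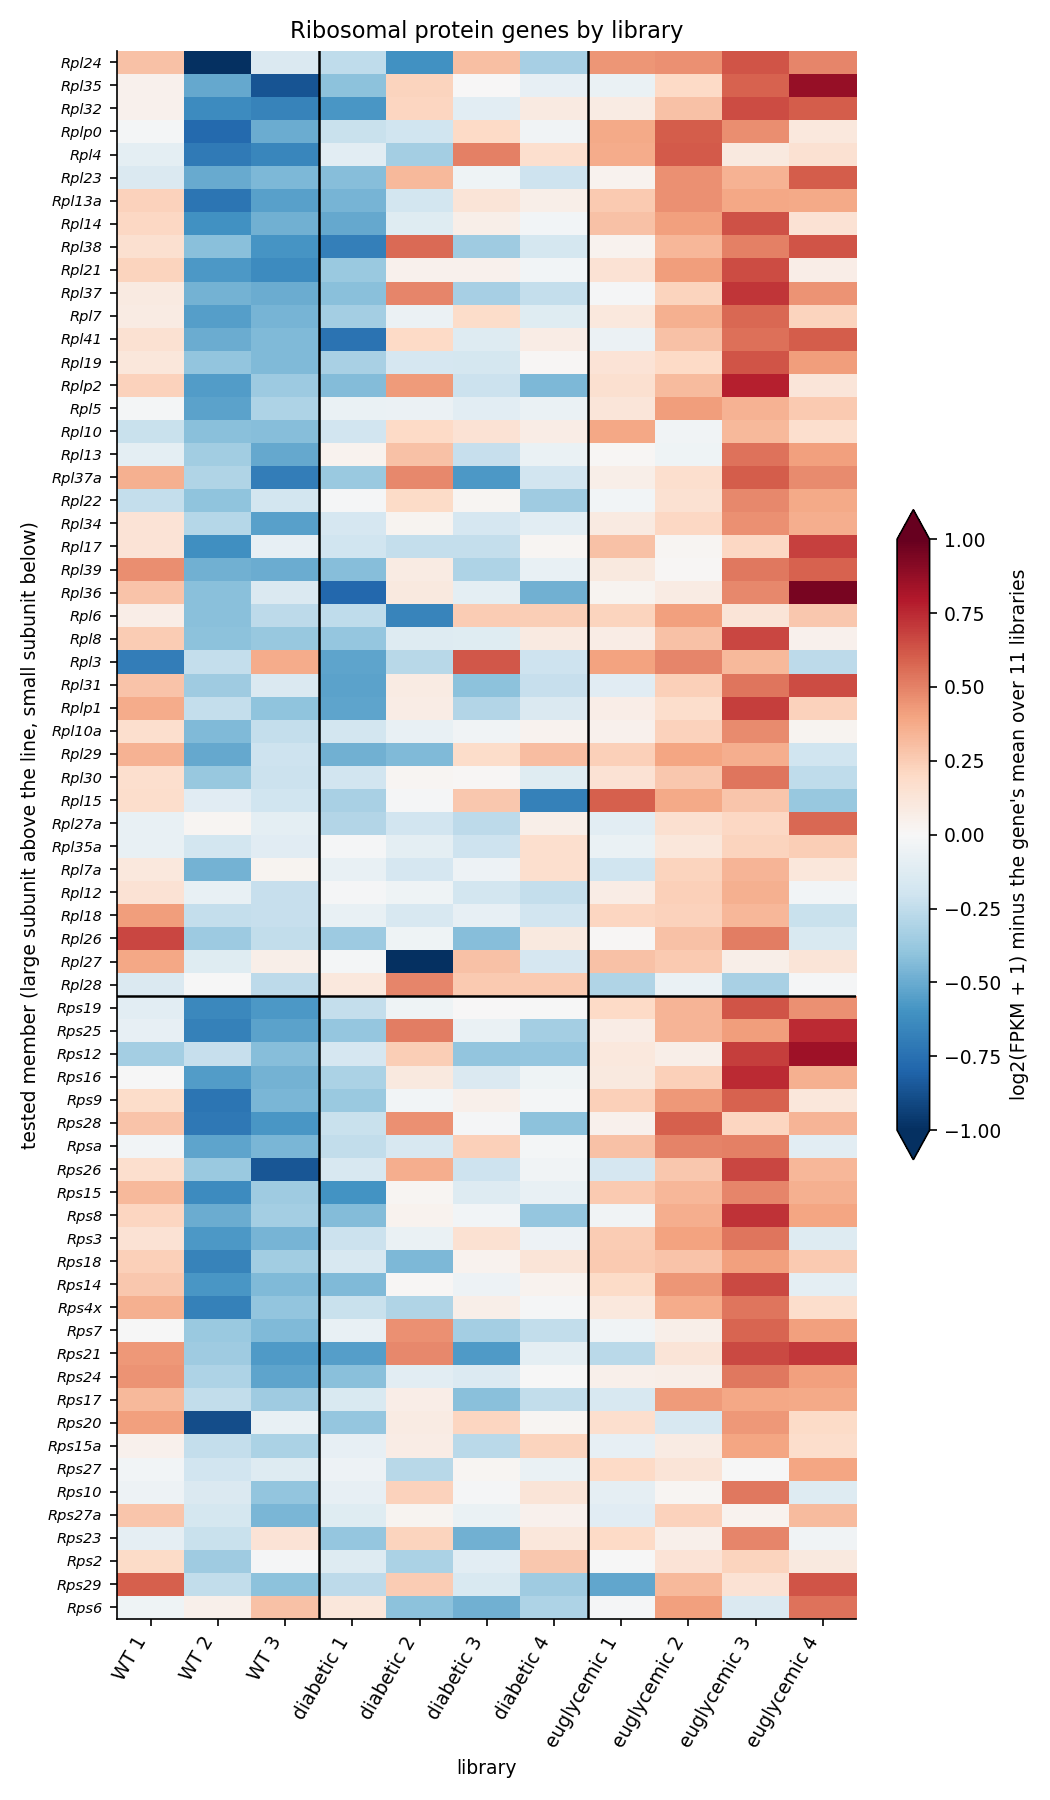
Each row is 1 of 68 of the 71 tested members and each column 1 library, with the color giving log2(FPKM + 1) minus the gene's mean over the 11 libraries. The euglycemic columns are mostly red (51, 67, 68 and 58 of all 71 tested members above their mean), WT columns 2 and 3 mostly blue (2 and 5), and WT column 1 mostly red (49).

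Members with a tract in their RefSeq window and those with a window but no tract were set side by side. Members without a window were left out. A window without a tract does not show that the mRNA lacks one, since the annotated start can lie some bases off. The log2 fold change of euglycemic against WT was above 0 for 26 of the 27 tested members with a tract, *Rpl28* being the exception, and for all 25 without. At an unadjusted p of at most 0.05, 9 of 27 (33.3%) with a tract and 20 of 25 (80.0%) without were higher, and this difference was not tested. The median log2 fold change of euglycemic against WT was 0.39 with a tract and 0.58 without, and 0.58 and 0.82 when WT library 1 was left out. The 48 tested members sharing under 50% of their stretches had a median of 0.54 and the 23 sharing more had 0.48 (0.79 and 0.63 without that library). Among the entries elsewhere that held at least 25% of a member's stretches, 23 of the 24 tested were above 0, with a median of 0.67 (0.93 without that library). Summed with these entries, an alternative chosen after seeing the data, 72 of 73 members were above 0 with a median of 0.58, and 0 were called.

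In diabetic βRapKOGFP β-cells the members' median fold change against WT lay closer to 0 than in euglycemic cells. No member of 71 was called, beside 109 of all genes (0.969%), and the lowest adjusted p was 0.202. At an unadjusted p of at most 0.05, 4 of 71 members (5.63%) were higher and 0 lower, close to the 6.15% of all genes that were higher. The median log2 fold change was 0.12, beside 0.0063 over all genes, with 54 members above and 17 below 0. In 3 of 71 members (4.23%), among them *Rpl10* and *Rpl28*, every diabetic library was above every WT library, beside 6.67% of all genes. The direction of the median rested on single WT libraries, since it was 0.31 without WT library 1 and -0.0026 without WT library 2, while it was 0.16 without diabetic library 1. Without WT library 1 every diabetic library was above both remaining WT libraries in 35 members (49.3%), beside 13.0% of all genes, and 15 members (21.1%) were higher at an unadjusted p of at most 0.05, beside 5.72%. The 4 members higher at that threshold became 1 to 2 when WT library 2, WT library 3, diabetic library 2, diabetic library 3, diabetic library 4 or euglycemic library 3 was left out, beside 4.54% to 6.64% of all genes in those fits.

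Of the members with the highest values, *Rpl4* was at 313, 265, 478 and 378 FPKM in the diabetic libraries and differed by 0.54 (SE 0.25). *Rpl28* was at 1.78, 2.62, 2.1 and 2.09 FPKM, above its 3 WT values, and differed by 0.42 (SE 0.18), as did *Rpl10* by 0.41 (SE 0.18). At the other end, *Rpl27* was at 2.48, 0.57, 3.31 and 2.15 FPKM and differed by -0.38 (SE 0.29), a value to which diabetic library 2 contributed the lowest level. *Rps6*, at 1.40, 0.67, 0.59 and 0.79 FPKM against 1.16 to 1.72 in WT, differed by -0.37 (SE 0.23), and *Rpl36* by -0.23 (SE 0.28). None of these 3 passed even the unadjusted threshold. Without WT library 1 the values were 0.74 for *Rpl4*, 0.41 for *Rpl28*, 0.48 for *Rpl10*, -0.24 for *Rpl27*, -0.45 for *Rps6* and -0.037 for *Rpl36*, and none was called.

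**Figure D4:**
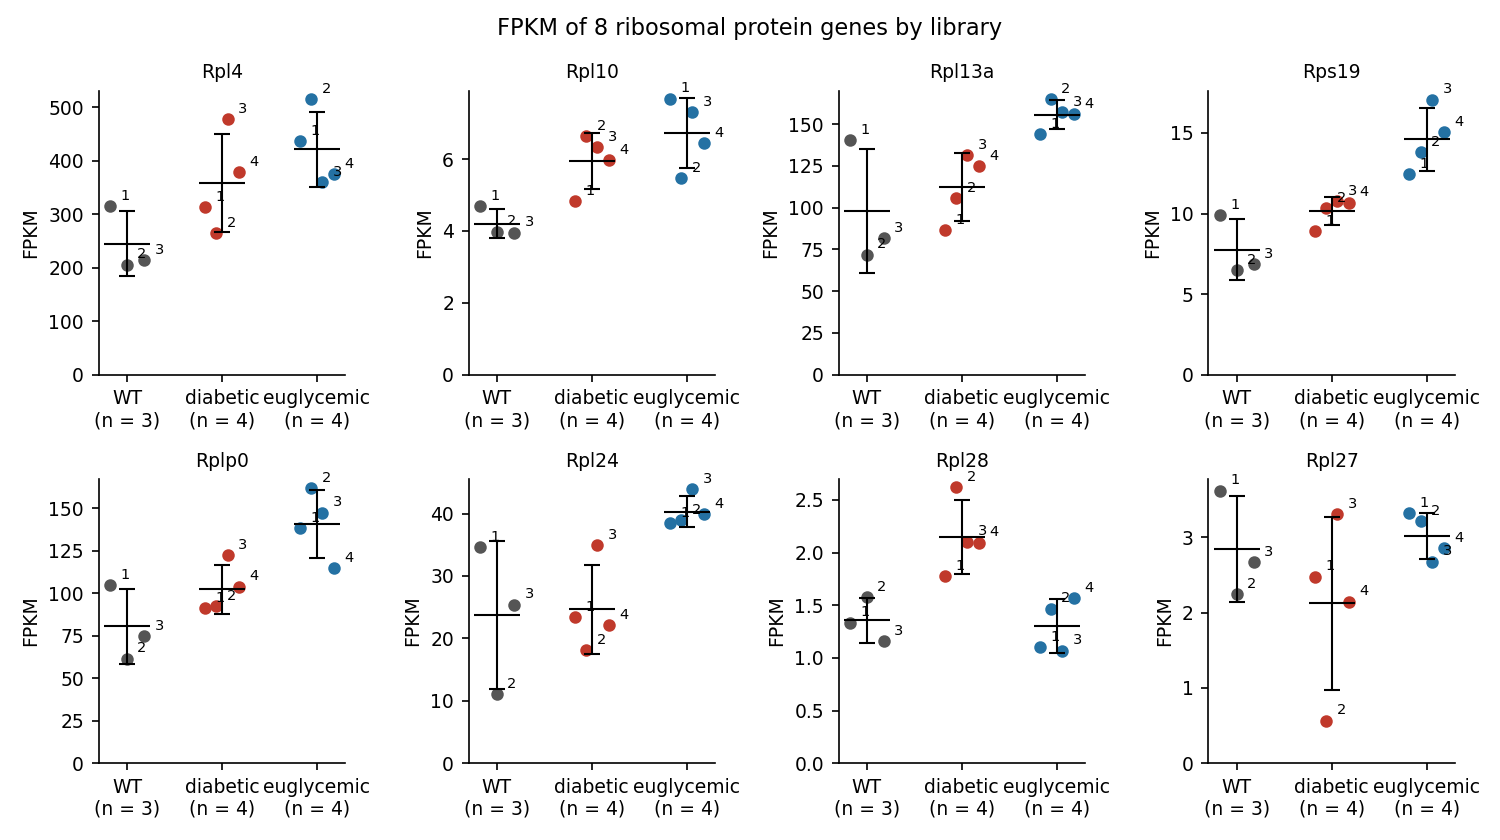
FPKM of 8 members by library, each point 1 library numbered by replicate, with the group mean and SD in black (n = 3 WT, 4 diabetic, 4 euglycemic). *Rpl4*, *Rpl10*, *Rpl13a*, *Rps19*, *Rplp0* and *Rpl24* have every euglycemic library above every WT library, while *Rpl28* is highest in the diabetic libraries and *Rpl27* overlaps in all groups.

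The 2 mutant groups were compared to see how the members differed with and without the insulin pellet when both lacked *Raptor*. No member of 71 was called, beside 1 of all genes (0.00889%). At an unadjusted p of at most 0.05, 21 of 71 members (29.6%) differed in either direction, beside 20.6% of all genes. Of the 21, 20 were lower in diabetic cells, as were 1126 of the 11251 genes (10.01%), and 1, *Rpl28*, was higher. The median log2 fold change was -0.41, beside 0.0088 over all genes, with 70 members below 0. In 17 of 71 members (23.9%) every euglycemic library was above every diabetic library, beside 7.42% of all genes. The count of lower members was 4 without diabetic library 1, which stood apart in its detected genes and cell markers, beside 6.35% of all genes, with a median of -0.34. It was 3 without euglycemic library 3, beside 7.75%, and 32 without WT library 1, beside 12.4%, and *Rpl28* did not pass without diabetic library 2 or euglycemic library 3. The counts also depended on the scaling. With the 20 highest and the mitochondrial genes left out of the scaling, 1 of 71 members was lower and 1 higher at an unadjusted p of at most 0.05, where 5.09% of all genes were lower. The median was then -0.24 where that of all genes moved to 0.15, a distance of -0.39.

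*Rpl24* was at 23.4, 18.1, 34.9 and 22.2 FPKM in diabetic libraries, each below the lowest euglycemic library at 38.4 (log2 fold change -0.73, SE 0.29). Its sum with *Gm28037* overlapped between the 2 groups. *Rpl36*, at 8.97, 17.5, 15.04 and 11.3 FPKM against 16.5, 17.2, 23.1 and 32.3, differed by -0.70 (SE 0.26) and its libraries overlapped. *Rpl28* was the exception in direction, with every diabetic library above every euglycemic library (log2 fold change 0.45, SE 0.17, adjusted p = 0.172 by limma). *Rps10* (-0.015, SE 0.19) and *Rps27a* (-0.15, SE 0.19), which is made as a fusion with ubiquitin, had the next highest values.

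**Figure D5:**
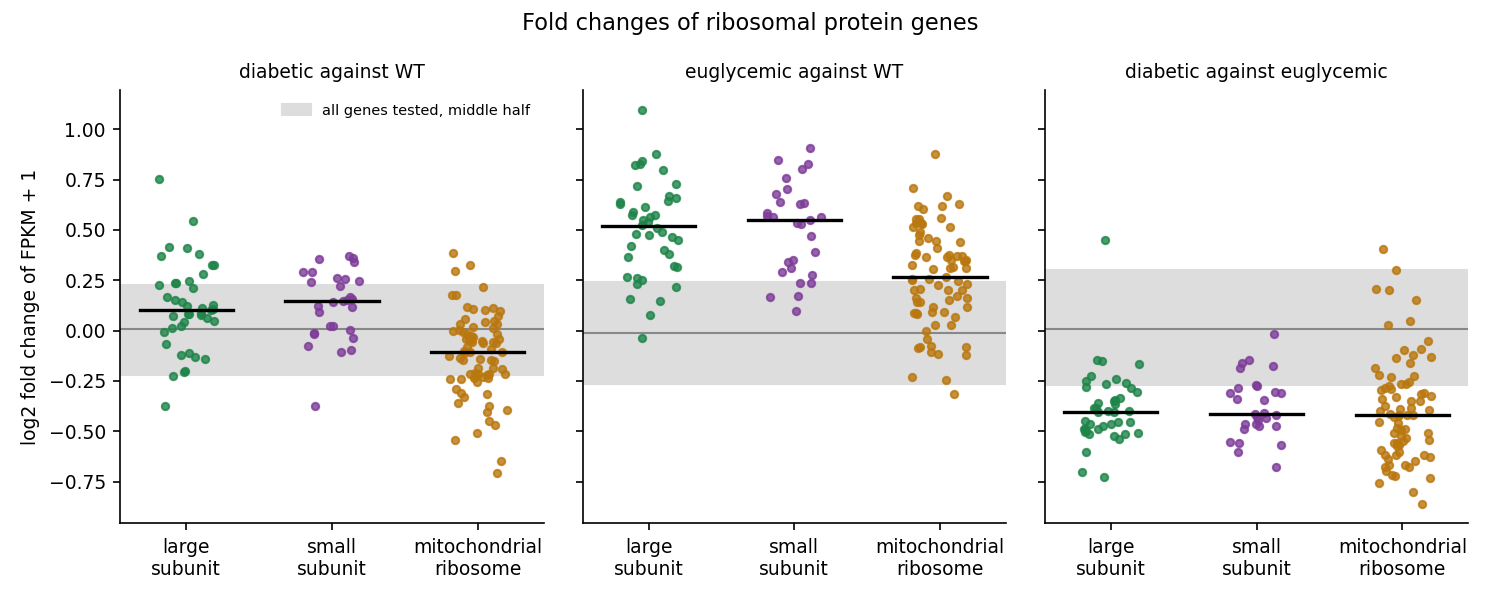
Log2 fold changes of FPKM + 1 for tested members of the large (42) and small (29) subunit and for 77 mitochondrial ribosomal protein genes in the 3 comparisons, each point 1 gene, with the median as a black line and the middle 50% of all genes tested in gray. The cytosolic medians are 0.10 and 0.15 in diabetic against WT, 0.52 and 0.55 in euglycemic against WT and -0.40 and -0.41 in diabetic against euglycemic.

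Related gene lists were set beside the members, and none held a called gene in any comparison when all libraries were fitted. The 77 tested mitochondrial ribosomal protein genes had a median log2 fold change of 0.27 in euglycemic and -0.10 in diabetic cells against WT, and of -0.42 in diabetic against euglycemic cells. In euglycemic cells 11 of the 77 (14.3%) were higher than in WT at an unadjusted p of at most 0.05 and 0 lower, beside 7.33% of all genes higher. In diabetic against euglycemic cells 29 of the 77 (37.7%) were lower and 0 higher at that threshold, beside 10.01% of all genes lower and the 20 of 71 cytosolic members (28.2%). With WT library 1 left out the medians against WT were 0.47 in euglycemic and 0.14 in diabetic cells, so the diabetic value changed sign, and 12 of the 77 were called in euglycemic cells against WT, beside 4.76% of all genes. In diabetic against euglycemic cells that fit called 8 of the 77, beside 3.36% of all genes and 1 of the 71 cytosolic members, and 42 were lower at an unadjusted p of at most 0.05, beside 12.4%. The 17 other TOP-type translation genes had medians of 0.34 in euglycemic and 0.12 in diabetic cells against WT, with 5 of 17 (29.4%) higher in euglycemic cells at that threshold. These medians were 0.49 and 0.24 without WT library 1, and 3 of the 17 were called in euglycemic cells, beside 4.76% of all genes. Among them were the elongation factor *Eef1a1*, at 85.0 ± 9.57 FPKM in WT (SD, n = 3), 136 ± 36.7 in the diabetic and 137 ± 23.4 in the euglycemic group (SD, n = 4 each), and *Tpt1*, a growth-associated TOP mRNA, at 13.0 ± 4.18 (SD, n = 3), 16.2 ± 2.96 and 22.6 ± 2.12 (SD, n = 4 each). *Tpt1* was called in euglycemic cells without WT library 1 (log2 fold change 1.02, adjusted p = 0.021 by limma) and *Eef1a1* was not (0.75).

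The 6 tested of 9 measured paralogues had a median of 0.52 in euglycemic cells, with *Rpl36al* at 39.5 ± 13.9 FPKM (SD, n = 3) in WT and 73.5 ± 4.94 (SD, n = 4) in euglycemic cells, beside its low parent *Rpl36a*. The median was 0.78 without WT library 1, and 2 of the 6 were then called, beside 4.76% of all genes, among them *Rpl36al* (1.19, adjusted p = 0.014 by limma). In diabetic against euglycemic cells that fit called 1 of the 6, beside 3.36% of all genes. Of the 2 genes that carry a ribosomal protein fused to ubiquitin or a ubiquitin-like protein, *Fau* differed by 0.68 in euglycemic cells against WT, or 0.89 without WT library 1. The 40 tested factors that assemble ribosomes had a median of 0.0053 in euglycemic cells, where that of the members was 0.53, and of 0.083 in diabetic cells, near the members' 0.12, and the difference between the lists was not tested. In euglycemic cells 3 of the 40 (7.5%) were higher at an unadjusted p of at most 0.05, close to the 7.33% of all genes, and 1 was lower. The medians were 0.14 and 0.15 without WT library 1, and 2 of the 40 were then called in euglycemic cells, close to the 4.76% of all genes, and 3 of the 40 in diabetic against euglycemic cells, beside 3.36%. The nucleolar chaperone *Npm1* was at 18.3 ± 4.03 FPKM (SD, n = 3) in WT and 30.8 ± 4.57 (SD, n = 4) in diabetic cells (log2 fold change 0.73, adjusted p = 0.166 by limma, and 0.88 without WT library 1, adjusted p = 0.153).

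The 9 snoRNA host genes, whose spliced transcripts also begin with TOP tracts in several cases, had a median of 0.13 in euglycemic and -0.14 in diabetic cells, which became 0.31 and 0.076 without WT library 1. The 14 tested regulators of TOP mRNAs and S6 kinases had medians of -0.028 in euglycemic and 0.17 in diabetic cells, which became -0.17 and -0.071. The diabetic median of each of these 2 lists thus changed sign with that library. In diabetic against euglycemic cells 1 of the 14 regulators was called without it, beside 3.36% of all genes. *Larp1*, which binds TOP tracts, was at 10.8 ± 3.26 FPKM (SD, n = 3) in WT and 8.41 ± 0.79 (SD, n = 4) in euglycemic cells, and *Rps6kb1*, the S6 kinase, at 4.76 ± 0.37 and 5.21 ± 2.23. In the p53 axis, 4 of 5 genes were tested, and *Cdkn1a*, a p53 target, was at 40.3 ± 8.18 FPKM (SD, n = 3) in WT and 71.9 ± 18.1 (SD, n = 4) in euglycemic cells (log2 fold change 0.81, adjusted p = 0.162 by limma), while *Trp53* differed by 0.0081. These were 0.65 (adjusted p = 0.131) and 0.24 without WT library 1.

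Markers of other cell types were also followed. Those of other islet cells had summed levels above every WT library in both mutant groups, and the mutant groups overlapped each other. The summed level of 6 α-cell markers was 1054 to 2444 FPKM in WT, 3938 to 14723 in diabetic and 4763 to 23771 in euglycemic libraries, with 1 of 5 tested (*Gcg*) called in euglycemic cells. The 4 δ-cell markers summed to 1176 to 2515, 4942 to 12262 and 4864 to 13953 FPKM, with 2 of 3 tested called in euglycemic cells, and the 2 PP-cell markers to 513 to 1107, 3674 to 12980 and 4984 to 14238, both called in each mutant group. Of these genes, *Ghsr* of the δ-cell list was at 0 in 1 WT library and the others were above 0 in all 3.

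The 5 duct markers summed to 58.1 to 71.8 FPKM in WT, 57.8 to 88.3 in diabetic and 97.0 to 132.7 in euglycemic libraries, where every euglycemic library lay above every other library. Most of the sum was *Krt7*, at 51.4 to 67.8, 40.3 to 55.5 and 62.8 to 89.3 FPKM, which was not called and whose WT and euglycemic libraries overlapped. *Spp1* was called in both mutant groups and *Krt19* in euglycemic cells. The 7 immune markers summed to 42.6 to 56.7, 75.2 to 199 and 58.7 to 128 FPKM in the same order, above WT in both mutant groups. Most of the sum was *C1qa*, at 33.3 to 41.4, 74.3 to 196 and 53.8 to 124 FPKM, which was not called. *Cd79a* went the other way, at 8.20 to 20.1, 0.199 to 0.561 and 0 to 1.10 FPKM, and was called lower in each mutant group. *Ptprc*, *Cd3e* and *Cd79b* were at 0 in all WT libraries. The 8 endothelial markers summed to 1.98 to 4.58 FPKM in WT, 9.41 to 51.9 in diabetic and 2.13 to 5.26 in euglycemic libraries, with *Plvap* called in diabetic cells and *Cdh5*, *Kdr*, *Eng* and *Cd34* at 0 in all WT libraries. The 11 acinar markers summed to 5.66 to 47.3, 17.1 to 2765 and 15.9 to 5165 FPKM with 0 of 10 tested called, and *Amy2a5* was at 0 in all WT libraries. The 5 fibroblast and stellate markers summed to at most 0.496 FPKM in WT and 0.241 in euglycemic libraries and to 0.563 to 15.8 in diabetic ones. The 8 immediate early genes, which respond to cell dissociation, summed to 1192 to 3333, 946 to 1543 and 940 to 5031 FPKM with none called. The β-cell markers *Slc2a2* and *Slc30a8* were called lower in both mutant groups. In sorted bulk cells a change in the mix of cells and a change of RNA per cell cannot be told apart, and the part of these cells in the levels of the ribosomal protein genes was not tested.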

How the data were processed

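RNA of sorted β-cells was measured in 11 libraries (3 WT, 4 diabetic, 4 euglycemic). The deposited values are FPKM per gene, made by the authors. The paper's methods name Tophat and Cufflinks on mm10, and the submitters' processing notes name HISAT2 2.0.4, StringTie 1.3.0 and edgeR on mm10. Which pipeline made the FPKM was not settled. Of repeated symbols, 17 lower entries were dropped.

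Fragment totals were inferred from steps in the FPKM of 4493 single-exon genes, 92.7% to 97.1% of whose values were whole multiples within 0.02.

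Fits used limma 3.58.1 in R 4.3.3 (lmFit, eBayes with a trend) on log2(FPKM + 1), which understates changes of low genes. All 11 libraries entered 1 fit over the 11251 genes that reached 1 FPKM in 3 or more libraries. Genes below that were compared with two-sided exact permutation tests in scipy 1.17.1. The labels do not say whether libraries of a group came from separate animals, so p-values measure the spread between libraries. The fit was tested on simulated data. Stretches were compared across the transcripts of GENCODE vM21, and gene starts come from RefSeq.

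Named genes were the 3 highest and 3 lowest members by fold change in each comparison and by level, called members, a fixed list by role, and members below the minimum. Genes of the related lists were named after their values were seen. Members and lists were chosen with earlier results of these data known. Alternatives covered the minimum level, the pseudocount, scaling, fit, call rule, membership and each library left out. Some members and related genes that these rules would name are not reported here, and the counts and sums include them.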

Additional observations from a re-analysis of the deposited data

Results flagged for a closer look

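In the groups of 4, the highest or lowest library was compared with the other 3 by its gap over the group's range (Dixon's test) for 58 sets of values, where chance gives about 1 in 20 such gaps. *Rpl11* was at 0.691 FPKM in diabetic library 4, against 0.164 to 0.225 in the other diabetic libraries. *Rpl11* was also high in euglycemic library 4, at 1.90 FPKM against 0.430 to 0.630. *Rps13* was at 1.35 FPKM in euglycemic library 4, against 0.247 to 0.323 in the others. *Rpl5* was at 2.90 FPKM in diabetic library 3, where the other diabetic libraries lay closely together at 3.01 to 3.03. *Rpl11* and *Rps13* were left out of the fit for their low levels, and the causes were not tested.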

How the results depend on the processing

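The count of called members was 0 in each comparison and moved under few alternatives. With library weights 3 members were called in diabetic against WT, 38 in euglycemic against WT and 1 in diabetic against euglycemic, beside 4.90%, 20.3% and 10.8% of all genes. At an unadjusted p with the 1.5-fold criterion the counts were 1, 25 and 5, beside 8.26%, 9.92% and 12.04% of all genes. Over the libraries left out in turn the counts ran from 0 to 0, from 0 to 20 and from 0 to 1, the highest without WT library 1. The cause was not tested. The medians ran from -0.0026 to 0.31, from 0.40 to 0.71 and from -0.46 to -0.34 when 1 library was left out, and the ratios of the summed level to WT from 1.05 to 1.39 (diabetic) and from 1.42 to 1.88 (euglycemic). With a replicate block the numbers of called members were 0, 0 and 0, and at an unadjusted p of at most 0.05, 26 of 71 were higher in euglycemic cells than in WT, against 38 without the block (5.79% of all genes with it), 11 were lower in diabetic than in euglycemic cells, against 20 (8.15%), and 1 was higher in diabetic cells than in WT, against 4 (6.37%). Libraries with the same number did not deviate together on average (mean r = -0.132 over 10 pairs, from -0.368 to 0.212). The labels do not say whether libraries with the same number belong together, and so few pairs cannot decide it. Single members near 0 changed sign. *Rpl27* in euglycemic against WT was at -0.022 with the 20 highest and mitochondrial genes left out of the scaling, and ran from -0.039 to 0.22 when 1 library was left out. *Rpl28* in euglycemic against WT ran from -0.099 to 0.030 in that way, and *Rps6* from -0.018 to 0.21. *Rps10* in diabetic against euglycemic was at 0.091 as TPM, at 0.12 without the 20 highest genes in the scaling, and ran from -0.085 to 0.13 when 1 library was left out. Levels under 1 FPKM rest on few fragments.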
